A study of Mus musculus with 4 samples.

Results

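The expression of 10 circadian clock genes, of 23337 gene symbols measured, was examined in hearts of mice that lack PIMT in cardiomyocytes. The members were taken by name: Arntl and Clock, which encode the activators of the clock, Per1, Per2, Per3, Cry1 and Cry2, which encode its repressors, Nr1d1 and Nr1d2, which encode the nuclear receptors of its second loop, and Dbp, an output gene. All 10 were found, and all 10 passed the filter on low values. RNA-seq libraries were made from 4 groups of C57BL6/J mice, male and female together: PIMT fl/fl controls of 2 months, PIMT fl/fl controls of 6 months, csPIMT-/- mice of 2 months and csPIMT-/- mice of 6 months. Each library held RNA pooled from the hearts of 5 mice, and there was 1 library per group. Both genotypes carry the floxed alleles of the PIMT gene, listed in the files as Tgs1, and csPIMT-/- mice in addition carry Cre recombinase driven by the α-myosin heavy chain promoter, which is active in cardiomyocytes. Non-muscle cells of the csPIMT-/- heart therefore keep the gene, and no group carried Cre without floxed alleles. The mice were untreated and were housed under a light-dark cycle with free access to food. The time of day at which hearts were collected is not given in the sources used here, and collection time, individual mice and group cannot be told apart when each group is 1 pool.

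The clock is a transcriptional feedback loop that runs in nearly every cell, cardiomyocytes included. BMAL1, the product of Arntl, pairs with CLOCK and binds E-boxes in the promoters of the Per, Cry, Nr1d1, Nr1d2 and Dbp genes. PER and CRY proteins return to the nucleus and repress that pair, and REV-ERBα and REV-ERBβ, from Nr1d1 and Nr1d2, repress Arntl while ROR factors activate it from the same sites. DBP, a PAR bZIP factor, drives a further set of genes through D-boxes, which NFIL3 represses. In a mouse heart the E-box genes Dbp and Nr1d1 peak in the light phase and Arntl peaks in nearly the opposite phase, so the level of a clock gene in a single sample depends strongly on when that sample was taken. PIMT itself is an RNA cap methyltransferase that binds the coactivator NCOA6.

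The sequences just before the start sites of the Per1, Per3, Cry1 and Nr1d1 genes are shown because they hold motifs of this loop in members whose levels are described afterwards. They are the 250 bases upstream of the annotated start, from RefSeq (GRCm38.p6), with motif matches in capitals.
Per1, chr11:69098699-69098948, plus strand: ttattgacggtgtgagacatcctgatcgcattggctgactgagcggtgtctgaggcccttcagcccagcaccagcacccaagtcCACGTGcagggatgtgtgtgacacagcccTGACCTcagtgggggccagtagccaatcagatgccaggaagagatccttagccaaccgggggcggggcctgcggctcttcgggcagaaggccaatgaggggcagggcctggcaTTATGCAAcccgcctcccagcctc
Per3, chr4:151044666-151044915, minus strand: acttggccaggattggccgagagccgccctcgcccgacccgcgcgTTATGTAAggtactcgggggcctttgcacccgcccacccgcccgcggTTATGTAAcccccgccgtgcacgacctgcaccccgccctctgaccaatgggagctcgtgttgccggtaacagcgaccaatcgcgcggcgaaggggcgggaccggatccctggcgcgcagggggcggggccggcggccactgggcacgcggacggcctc
Cry1, chr10:85185055-85185304, minus strand: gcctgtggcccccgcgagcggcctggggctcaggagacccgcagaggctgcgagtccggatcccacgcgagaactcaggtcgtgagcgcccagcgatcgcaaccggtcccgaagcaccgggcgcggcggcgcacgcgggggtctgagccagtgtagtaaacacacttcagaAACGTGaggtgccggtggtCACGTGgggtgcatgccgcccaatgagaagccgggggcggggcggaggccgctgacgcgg
Nr1d1, chr11:98775378-98775627, minus strand: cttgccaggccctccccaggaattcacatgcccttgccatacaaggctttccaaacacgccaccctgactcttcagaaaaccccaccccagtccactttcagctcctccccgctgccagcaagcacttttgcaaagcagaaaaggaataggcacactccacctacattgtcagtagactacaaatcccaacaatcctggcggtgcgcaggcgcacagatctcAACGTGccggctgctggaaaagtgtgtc
The motifs searched, on both strands, were the E-box CACGTG, the related E-prime box CACGTT, the core AGGTCA bound by REV-ERB and ROR factors, and the D-box TTATGNAA. No match shared a base with a match of another motif. The Per1 window held an E-box 166 to 161 bases before the start, an AGGTCA core on the minus strand and a D-box 24 to 17 bases before it, while the window before its other listed start held no match. The Per3 window held 2 D-boxes, the Cry1 window an E-box and an E-prime box, and the Nr1d1 window an E-prime box. Of 32851 windows of this length, 6.02% held CACGTG, 3.85% CACGTT, 14.0% AGGTCA and 3.07% TTATGNAA. In the same windows of other members, Cry2 had an E-prime box, Nr1d2 had AGGTCA, and Clock had it before 1 of its 3 listed starts. The windows of Arntl and Dbp held none of these letters, and Per2 had no window in the table. A match in these letters is a description of the sequence and not a bound site.

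Recovered reads ranged from 29823073 to 40705783 per library, and 17169 to 17349 symbols had reads. Values are normalized counts, that is, reads divided by a size factor of the library, so that 1 read was worth 0.865 to 1.23 normalized counts. Tgs1, the deleted gene, counted 580 and 816 in the controls of 2 and 6 months and 160 and 162 in csPIMT-/-, which is 0.277 of control (95% counting interval 0.227 to 0.334) at 2 months and 0.199 (0.167 to 0.236) at 6 months. All 8 cardiomyocyte markers were detected in every library, with summed levels of 1374118 to 1630976. Summed atrial markers other than Nppa, which ventricles also make in heart failure, were 2982 and 44706 in the controls and 124618 and 28312 in csPIMT-/- of 2 and 6 months, and summed lung markers were 1160 in the 2-month csPIMT-/- library against 1.73 to 17.7 elsewhere. Most of that lung sum was Bpifa1 at 979 and Scgb1a1 at 139, while Sftpc, Sftpb and Sftpa1 counted 25.9, 9.9 and 6.2. In bulk tissue, fewer cells of a type and less RNA per cell cannot be told apart.

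Per kilobase of the longest transcript, and averaged over the 4 libraries, Dbp was the most abundant member with 2846 normalized counts per kb. It was followed by Nr1d2 at 1105, Nr1d1 at 966, Per1 at 957 and Cry2 at 598 per kb. Per3 stood at 426, Per2 at 290, Cry1 at 202 and Clock at 198 per kb, and Arntl was lowest at 73.8. Each gene overlapped its neighbours in this order once the range over the 4 libraries was considered.

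**Figure D1:**
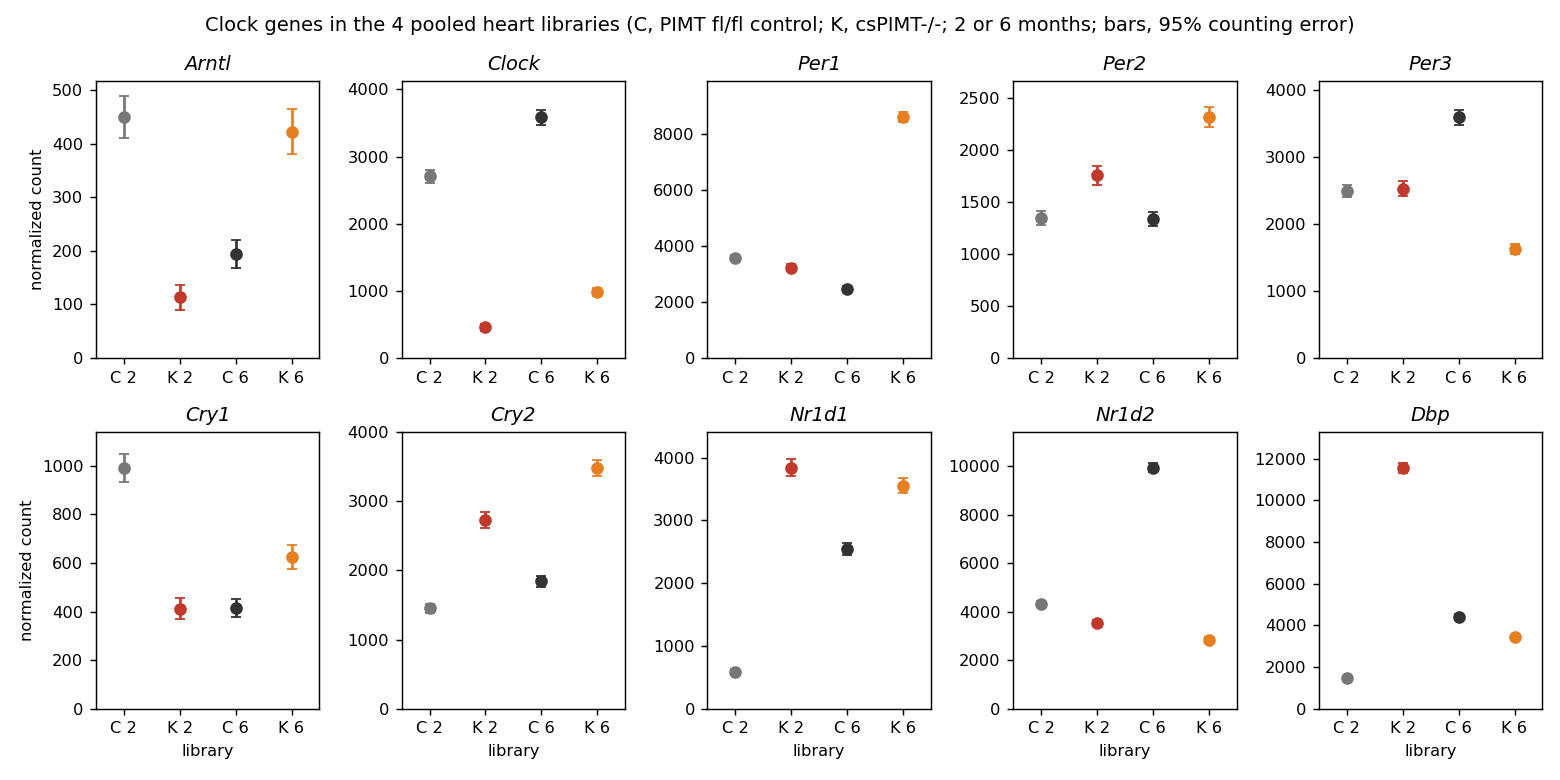
Normalized count of each clock gene (y axis, from 0) in the 4 pooled heart libraries, where C is the PIMT fl/fl control and K is csPIMT-/- at 2 or 6 months, and bars are 95% counting error. Dbp and Nr1d1 are lowest in the 2-month control at 1487 and 593, while Arntl is highest there at 449.

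The clock genes varied more between the pools than most genes did. The ratio of the highest to the lowest library had a median of 3.48 over the 10 members against 2.33 over the 14847 genes tested, and it lay above the latter in 8 of 10 members. Clock at 7.84, Dbp at 7.78 and Nr1d1 at 6.47 had the widest ranges, and Per2 had the narrowest at 1.74. The 2 control pools differed from each other as well, and the source of the spread was not tested. Between the controls, the absolute log2 ratio of 6 over 2 months had a median of 0.87 over the members and 0.30 over all genes, and 9 of 10 members were above the median of all genes. Between the csPIMT-/- pools the corresponding medians were 0.62 and 0.40, with 6 of 10 members above.

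At 2 months Arntl, Clock and Cry1 were below 0.5 of control, as were 22.5% of all 15152 genes with enough reads, and Nr1d1 and Dbp were above 2-fold, as were 17.3%. At 6 months Clock, Per3 and Nr1d2 were below 0.5, beside 24.9% of 15218 genes, and Arntl and Per1 were above 2-fold, beside 16.9%. Clock was thus the only member past 2-fold in the same direction at both ages. The shares of members past 2-fold were close to those of all genes, so their number is not a result about the clock. Arntl was past 2-fold in opposite directions at the 2 ages, which held for 1.81% of 14781 genes. Both csPIMT-/- libraries lay above both controls for Per2, Cry2 and Nr1d1, with 35.2% of all genes doing so, and below both controls for Clock and Nr1d2, with 35.9%. The libraries of the other 5 members overlapped between genotypes.

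Over both ages, with limma and Benjamini-Hochberg adjustment over 14847 genes, Clock was lower in csPIMT-/- hearts and Cry2 was higher. Differences over both ages are given here as log2(normalized count + 1), csPIMT-/- minus control. Of all genes tested 17.5% were called lower and 11.0% were called higher, so 1 of 10 members in each direction was below or near the background. The fit had 1 residual degree of freedom, which for each gene is the difference of its genotype ratio between the 2 ages. limma moderated that spread with 4.01 prior degrees of freedom drawn from all genes. The p-values therefore rest more on the spread of other genes than on that of the gene itself. In addition, the log2 ratio between genotypes was higher for genes with GC-rich transcripts, with a Spearman's rho of 0.580 over 14976 genes at 2 months and 0.607 over 15040 genes at 6 months. These genes share the same 4 libraries and the relation is a description. When that trend was subtracted, limma called 0 genes of 14679, with 3829 at an unadjusted p under 0.05, whereas edgeR and DESeq2, without the subtraction, called 2521 and 2996 genes lower.

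**Figure D2:**
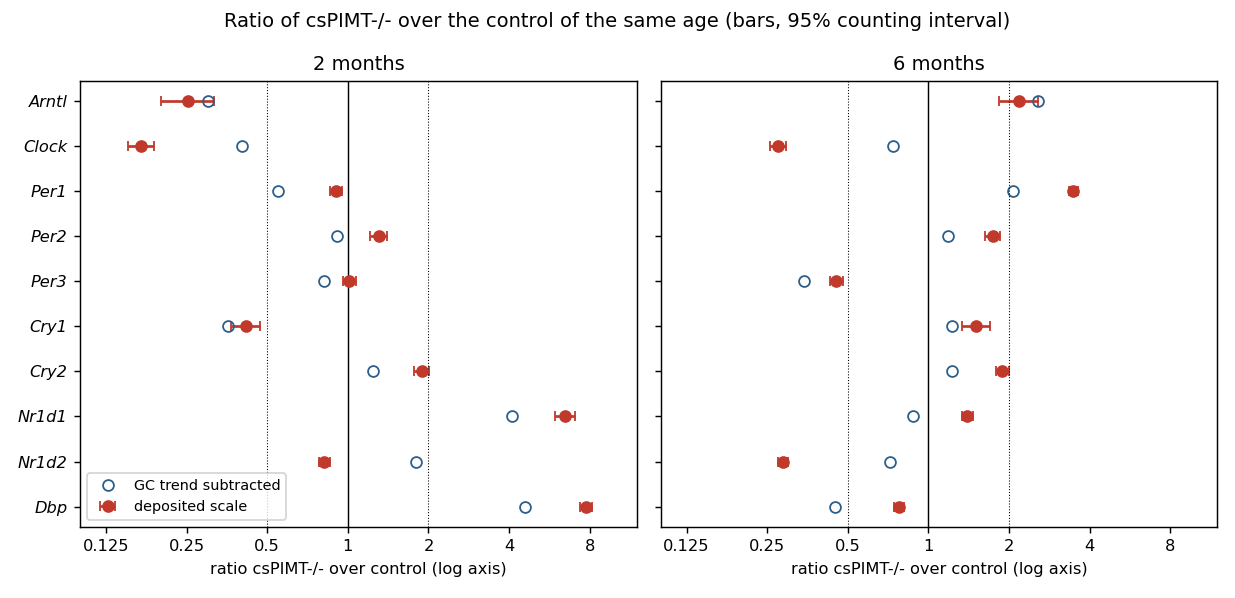
Each clock gene's csPIMT-/- level relative to its age-matched control at 2 months (left) and 6 months (right), on a log axis, where filled points with bars are the deposited scale with 95% counting intervals and open points follow subtraction of the GC trend. Arntl lies at 0.253 at 2 months and 2.17 at 6 months, while Cry2 lies at 1.88 and 1.89.

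Of the activators, Clock (chr5:76209868-76304792, coordinates of GENCODE M21 on GRCm38) was lower in csPIMT-/- at both ages. It counted 2704 and 3586 in the controls, and 457 and 984 in csPIMT-/- hearts, at 2 and 6 months. Both csPIMT-/- pools were thus well below both controls. The ratio was 0.169 (95% counting interval 0.152 to 0.188) at 2 months and 0.275 (0.256 to 0.295) at 6 months, and over both ages Clock fell by 2.21 on the log2 scale (SE 0.27, limma adjusted p = 0.0164). Its transcript is long and has the lowest GC content of the members, 40.9%, and after subtraction of the GC trend its ratios were 0.404 and 0.738 and the difference was -0.86 (limma adjusted p = 0.166). Without the 6-month control the adjusted p was 0.0559.

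Arntl (chr7:113207465-113314126), the partner of Clock, behaved differently. It counted 449 in the 2-month control, 194 in the 6-month control, 113 in the 2-month csPIMT-/- pool and 422 in the 6-month csPIMT-/- pool. The highest and the lowest value therefore both came from 2-month mice, and each genotype had 1 high and 1 low pool. The ratio was 0.253 (0.200 to 0.316) at 2 months and 2.17 (1.84 to 2.57) at 6 months, and with the GC trend subtracted it was 0.30 and 2.56. Against the 2-month control, the 6-month csPIMT-/- pool did not differ beyond counting error (log2 ratio -0.09, counting interval of the ratio 0.824 to 1.07). Over both ages the difference was -0.43 (SE 0.76, limma adjusted p = 0.687), and it was 0.17 without the 2-month control and 0.51 without the 2-month csPIMT-/- pool.

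Among the Per genes, which encode the repressors that bind the activators, Per1 (chr11:69095217-69109960) stood out at 6 months. It counted 3577 and 2471 in the controls of 2 and 6 months, and 3231 and 8600 in csPIMT-/-. Only the 6-month csPIMT-/- pool was apart from the other libraries. The ratio was 0.903 (0.860 to 0.949) at 2 months and 3.48 (3.33 to 3.63) at 6 months, and 0.548 and 2.06 after subtraction of the GC trend. The log2 difference over both ages was 0.83 (SE 0.48, limma adjusted p = 0.236), and without the 2-month csPIMT-/- pool it was 1.53 (adjusted p = 0.0379).

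Per2 and Per3 moved less and in opposite directions at 6 months. Per2 (chr1:91415982-91459324) counted 1350 and 1334 in the controls and 1759 and 2316 in the csPIMT-/- pools of 2 and 6 months. The controls were alike, and both csPIMT-/- pools were higher, by 1.30-fold (1.21 to 1.40) and 1.74-fold (1.63 to 1.85). The difference did not pass the test (log2 difference 0.59, SE 0.23, limma adjusted p = 0.112), and the ratio at 2 months was 0.912 with the GC trend subtracted. Per3 (chr4:151003652-151044665), a paralog that is dispensable for the core rhythm, counted 2487 and 3590 in the controls and 2523 and 1626 in csPIMT-/-. At 2 months the genotypes differed by less than counting error (ratio 1.01, 0.958 to 1.07), and at 6 months the ratio was 0.453 (0.427 to 0.480). Over both ages the Per3 difference was -0.56 (SE 0.33, limma adjusted p = 0.242).

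The CRY proteins, which complete the repressor complex, gave an uneven pair. Cry1 (chr10:85131700-85185064) counted 992 and 416 in the controls and 412 and 625 in the csPIMT-/- pools of 2 and 6 months. Its highest value was that of the 2-month control, and the 6-month control and 2-month csPIMT-/- pool were nearly equal. The ratio was 0.415 (0.367 to 0.470) at 2 months and 1.50 (1.33 to 1.70) at 6 months, the same change of direction as in Arntl. Over both ages the Cry1 difference was -0.34 (SE 0.49, limma adjusted p = 0.618), and it was 0.29 without the 2-month control.

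Cry2 (chr2:92403646-92434043) counted 1449 and 1844 in the controls and 2731 and 3480 in csPIMT-/-. Both csPIMT-/- pools were above both controls, and the ratio was nearly the same at the 2 ages, 1.88 (1.77 to 2.01) and 1.89 (1.79 to 1.99). The ratio of 6 over 2 months was 1.27 in each genotype, which follows from the equal ratios at the 2 ages and is not a separate result. Cry2 rose by 0.91 on the log2 scale (SE 0.20, limma adjusted p = 0.0333). After subtraction of the GC trend the ratios were 1.24 and 1.23 and the difference was 0.31 (adjusted p = 0.357). The call was lost without the 2-month control (adjusted p = 0.179), the 6-month control (0.0870) or the 6-month csPIMT-/- pool (0.103). Of its exonic bases, 4.67% overlap a transcript on the other strand, D930015M05Rik.

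Nr1d1 and Nr1d2, whose products repress Arntl, diverged. Nr1d1 (chr11:98767932-98775333) counted 593 and 2539 in the controls and 3836 and 3550 in the csPIMT-/- pools of 2 and 6 months. The 2-month control was far below the other libraries, while the csPIMT-/- pools were close to each other. The ratio was 6.47 (5.96 to 7.04) at 2 months and 1.40 (1.33 to 1.47) at 6 months, and 4.09 and 0.874 with the GC trend subtracted. The difference over both ages was 1.59 (SE 0.53, limma adjusted p = 0.0801), and it passed without the 6-month control (2.64, adjusted p = 0.0217). The 3′ end of Nr1d1 overlaps that of Thra on the other strand, by 263 bases or 8.55% of its exonic bases. Thra counted 3461 and 2784 in the controls and 3510 and 4132 in the csPIMT-/- pools of 2 and 6 months. Its order of libraries differed from that of Nr1d1, and the part of Thra reads in the Nr1d1 values was not tested.

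Nr1d2 (chr14:18204054-18239127) counted 4320 and 9924 in the controls and 3530 and 2845 in csPIMT-/-. The 6-month control was more than 2-fold above every other library. The ratio was 0.817 (0.780 to 0.856) at 2 months and 0.287 (0.275 to 0.299) at 6 months, and 1.79 and 0.718 after subtraction of the GC trend, which turned the direction at 2 months. The difference over both ages was -1.05 (SE 0.39, limma adjusted p = 0.101). It passed without the 2-month control (-1.65, adjusted p = 0.0283), and with the GC trend subtracted it was 0.19 (adjusted p = 0.762), of the opposite sign. Nr1d2 is, after Clock, the member of the lowest GC content, 41.8% against 56.8% in Nr1d1.

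Dbp (chr7:45705088-45710203), the output gene, had the largest ratio of any member at 2 months. It counted 1487 and 4420 in the controls and 11562 and 3441 in the csPIMT-/- pools of 2 and 6 months. The extremes were again both 2-month libraries, in the reverse order to Arntl. The ratio was 7.78 (7.39 to 8.19) at 2 months and 0.779 (0.745 to 0.814) at 6 months, and 4.59 and 0.446 after subtraction of the GC trend. The difference over both ages was 1.30 (SE 0.77, limma adjusted p = 0.245). Of its exonic bases 18.0% overlap Sphk2 on the other strand. Sphk2 counted 1031 and 933 in the controls and 1878 and 1835 in csPIMT-/-, with ratios of 1.82 at 2 months and 1.97 at 6 months. The part of Sphk2 reads in the Dbp values was not tested.

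Some markers of other tissues had the same order of libraries as Dbp. It ran from the 2-month control up through the 6-month csPIMT-/- pool and the 6-month control to the 2-month csPIMT-/- pool. In that order the adipocyte gene Adipoq counted 5.19, 298, 453 and 1830, and the atrial gene Myl7 counted 1045, 8084, 17299 and 42908. Adipoq and Myl7 were chosen after their values were seen. Of the 5 brown fat markers Adipoq, Plin1 and Ucp1 had this order, Cidea and Fabp4 did not, and the summed level was 12202 and 11840 in the controls and 10967 and 6354 in csPIMT-/-. Of the 5 atrial markers Myl7, Myl4 and Sln had it, Nppa and Nr2f2 did not, and the summed level was 41164 and 115365 in the controls and 325798 and 348609 in csPIMT-/-. No marker of either list was at 0 in all libraries, and the part of these tissues in the Dbp values was not tested.

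Within a genotype, the 2 pools differed in age, in mice and in any difference of handling, which cannot be told apart. From 2 to 6 months in controls, Arntl (0.433) and Cry1 (0.420) were below 0.5, beside 4.65% of 15132 genes, and Nr1d1 (4.28), Dbp (2.97) and Nr1d2 (2.30) were above 2-fold, beside 9.01%. The control pools thus separated Arntl and Cry1 from the REV-ERB genes and the output gene, and 5 of 10 members were past 2-fold. Clock, the other activator, was higher in the 6-month control (1.33). In csPIMT-/-, Dbp (0.298) was below 0.5, beside 8.20% of 15057 genes, and Arntl (3.72), Per1 (2.66) and Clock (2.15) were above 2-fold, beside 9.71%. Arntl and Dbp therefore differed between the ages by more than 2-fold in each genotype, and in opposite directions in the genotypes. These comparisons share libraries with those of genotype.

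The ratio of 2 clock genes within a library does not depend on the size factor. It can still carry the GC trend, as GC content was 61.6% in Dbp, 56.8% in Nr1d1 and 48.2% in Arntl. Dbp over Arntl and Nr1d1 over Arntl are given without subtraction of that trend. Dbp over Arntl, per kb, was 7.20 (95% counting interval 6.52 to 7.96) in the 2-month control and 222 (181 to 275) in the 2-month csPIMT-/- pool. The 6-month libraries lay between these, at 49.5 (43.2 to 56.9) in the control and 17.7 (16.0 to 19.7) in csPIMT-/-. Nr1d1 over Arntl had the same order, with 1.94 and 49.7 at 2 months and 19.2 and 12.3 at 6 months in control and csPIMT-/-. At 2 months both ratios were higher in csPIMT-/-, and at 6 months both were lower there.

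**Figure D3:**
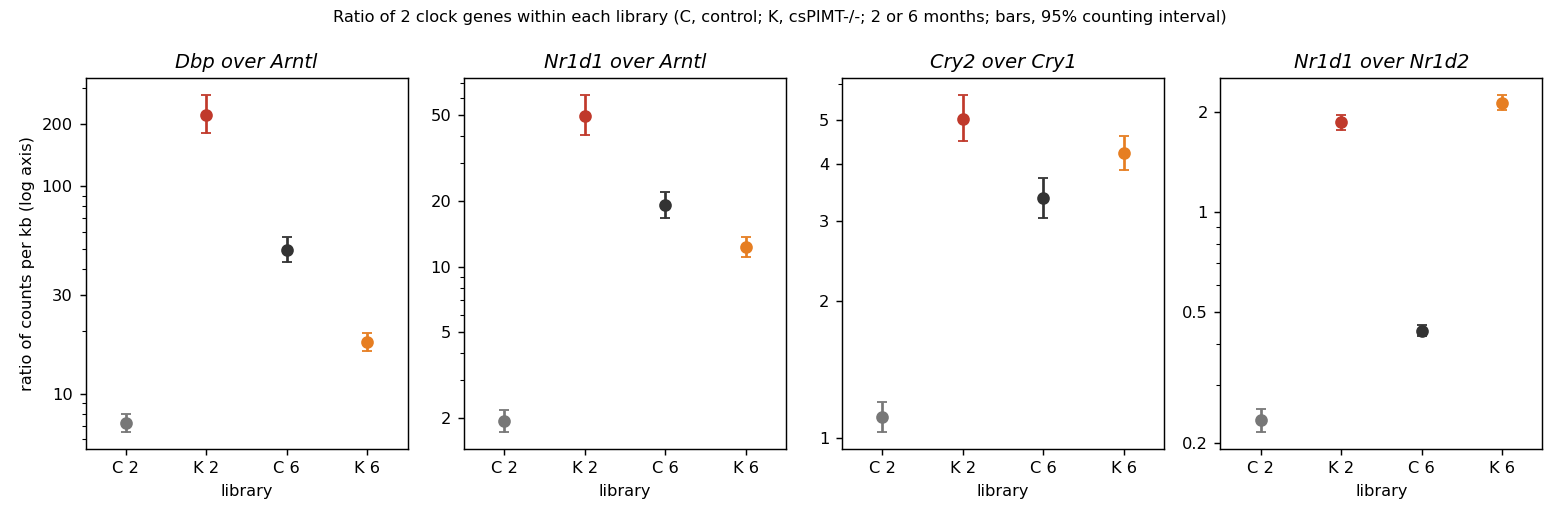
Ratio of 2 clock genes within each library, in normalized counts per kb on a log axis, with 95% counting intervals, where C is control and K is csPIMT-/- at 2 or 6 months. Dbp over Arntl runs from 7.20 to 222 between the 2-month pools, and Nr1d1 over Nr1d2 separates the genotypes.

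Paralog ratios behaved in another way. Nr1d1 over Nr1d2, per kb, was 0.235 and 0.439 in the controls and 1.86 and 2.14 in the csPIMT-/- pools of 2 and 6 months. Between genotypes this ratio differed by 7.92-fold at 2 months and 4.88-fold at 6 months, and by 2.28-fold and 1.22-fold after subtraction of the GC trend. Cry2 over Cry1 was 1.11 in the 2-month control and 3.37 to 5.05 in the other libraries. Per1 over Per3 was 6.79 in the 6-month csPIMT-/- pool and 0.884 to 1.85 elsewhere, and Arntl over Clock was 1.05 there against 0.132 to 0.605 elsewhere.

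The wider clock was examined through lists of related genes. Of 7 activators and partners, Clock was called lower and none higher, and of 5 repressors outside the members 1 was called higher, against 17.5% of all genes called lower and 11.0% higher. With the GC trend subtracted no call in any of the lists remained. The gene called higher was Ciart, a repressor of the CLOCK and BMAL1 pair, listed in the files as Gm129. It counted 85.7 and 320 in the controls and 610 and 664 in the csPIMT-/- pools of 2 and 6 months, so both csPIMT-/- pools were above both controls, most widely at 2 months. Ciart rose by 1.93 on the log2 scale (SE 0.50, limma adjusted p = 0.0439), with ratios of 7.12 and 2.07. The call was lost in most fits that left out 1 library, with differences of 0.99 to 2.88.

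Nfil3, which represses D-box genes, was chosen after its values were seen. It counted 1238 and 281 in the controls and 450 and 1517 in the csPIMT-/- pools of 2 and 6 months. Like Arntl, it was high in the 2-month control and the 6-month csPIMT-/- pool, with ratios of 0.363 (0.323 to 0.408) and 5.39 (4.77 to 6.10). Of the PAR bZIP factors other than Dbp, Hlf fell and Tef did not pass. Hlf counted 1168 and 894 in the controls and 610 and 229 in csPIMT-/- (log2 difference -1.45, SE 0.34, limma adjusted p = 0.0370). The Hlf call was lost in most fits that left out 1 library, with differences of -2.15 to -0.74. Tef counted 8785 and 10705 in the controls and 16397 and 13016 in csPIMT-/- (log2 difference 0.59, SE 0.24, limma adjusted p = 0.125), so the PAR bZIP genes did not share a direction.

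A list of 13 genes held kinases, a phosphatase and ubiquitin ligases that act on clock proteins. It also held Usp2, Timeless and Tipin, which belong to none of these classes. Of the 13, 5 were called lower, Tipin among them, and none higher, against 17.5% and 11.0% of all genes. The median log2 ratio of the list was -0.82 at 2 months and -0.50 at 6 months, against -0.001 and 0.004 over all genes. Ppp1cb, a catalytic subunit of protein phosphatase 1, counted 10877 and 14833 in the controls and 1968 and 4551 in csPIMT-/- (limma adjusted p = 0.0164), and its adjusted p was 0.0616 without the 6-month control. Csnk2a1, a subunit of casein kinase 2, had ratios of 0.335 and 0.244, and Fbxw7, a ubiquitin ligase subunit, had ratios of 0.328 and 0.161. Csnk2a1 and Fbxw7 kept their calls with any 1 library left out. With the GC trend subtracted the log2 differences went from -1.81 to -0.89 for Csnk2a1 (adjusted p = 0.115), from -2.12 to -1.62 for Fbxw7 (adjusted p = 0.0970) and from -2.08 to -0.72 for Ppp1cb (adjusted p = 0.211). Tipin, the partner of TIMELESS, had ratios of 0.475 and 0.321 but lost its call in each fit that left out 1 library. Fbxl21, a ubiquitin ligase subunit that acts on CRY proteins, had 10 to 43 reads per library and ratios of 2.57 (1.12 to 6.22) and 2.99 (1.67 to 5.60).

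Of 16 clock-controlled output genes, 2 were called lower and 4 higher, where 17.5% and 11.0% of all genes were. Tspan4, a tetraspanin, counted 1775 and 2557 in the controls and 7049 and 7510 in csPIMT-/-, and rose by 1.77 (SE 0.22, limma adjusted p = 0.0164), a call that was kept with any 1 library left out but lost with the GC trend subtracted (1.07, adjusted p = 0.104). Por, which supplies electrons to cytochromes P450, had ratios of 2.60 and 2.08 (limma adjusted p = 0.0222, and 0.0615 without the 6-month control). Ciart was called as well, and so was Klf15, a Krüppel-like factor of cardiac metabolism, with ratios of 1.68 and 3.06 (limma adjusted p = 0.0374). The Klf15 call was lost in most fits that left out 1 library, with differences of 0.63 to 1.73. The genes called lower were Hlf and Nampt, the NAD salvage enzyme. Nampt counted 3486 and 8965 in the controls and 1947 and 1915 in csPIMT-/- (limma adjusted p = 0.0380). Its call was lost in most fits that left out 1 library, with differences of -2.21 to -0.85. With the GC trend subtracted its difference was -0.12. Klf15 and Nampt were named for their calls, outside the naming rule and after their values were seen. The outputs thus moved in both directions, with median log2 ratios of 0.33 at 2 months and 0.16 at 6 months.

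Per1 is also induced by glucocorticoid hormones, and a list of 10 glucocorticoid-induced genes was described beside it. At 6 months 9 of 10 were above 1 and 7 were above 2-fold in csPIMT-/- over control, against 16.9% of all genes, with a median log2 ratio of 1.57. At 2 months 7 of 10 were below 1, with a median of -0.23. Of the 10, 4 were below 0.5 there and 1 was above 2-fold, against 22.5% and 17.3% of all genes. Past 2-fold in opposite directions at the 2 ages were 2 of 10, against 1.81% of all genes. Fkbp5, a chaperone of the glucocorticoid receptor, counted 519 and 687 in the controls, 779 in the 2-month csPIMT-/- pool and 7938 in the 6-month csPIMT-/- pool. Zbtb16, a zinc finger factor, counted 2682, 2367, 2108 and 9893 in the same order. Like Per1, both were highest in the 6-month csPIMT-/- pool alone, and neither passed the test over both ages (limma adjusted p = 0.0806 for Fkbp5 and 0.295 for Zbtb16). Other genes of the list differed from Per1. Sgk1, Errfi1 and Cdkn1a were highest in that pool too, but the 2-month control was next, at 6794, 3414 and 4982. Klf9 was highest in the 6-month control, at 5403. Of the list 2 were called higher and 0 lower, against 11.0% and 17.5% of all genes. These were the metallothioneins Mt2, with ratios of 3.04 and 13.5 (limma adjusted p = 0.0287), and Mt1 (limma adjusted p = 0.0283). With 1 library left out, the Mt2 call was lost in most fits (differences 1.20 to 4.15) and the Mt1 call in some (0.98 to 1.82). All genes of this list named here other than Mt2 were chosen after their values were seen. The part of glucocorticoids in the Per1 values was not tested.

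Immediate early genes respond within minutes to many of the stimuli that also induce Per1, and of 10 such genes 2 were called higher, 0 lower, and 3 were past 2-fold in opposite directions at the 2 ages, against 11.0%, 17.5% and 1.81% of all genes. Junb, an AP-1 subunit, had ratios of 3.16 and 2.26 (limma adjusted p = 0.0196, and 0.0508 without the 2-month control). Ier3, chosen after its values were seen, was the other (limma adjusted p = 0.0341). The Ier3 call was lost in most fits that left out 1 library, with differences of 0.77 to 1.71. The 3 genes with opposite directions, also chosen afterwards, were Fosb, Atf3 and Nr4a1. Nr4a1 counted 5101 and 595 in the controls and 704 and 2697 in csPIMT-/-, and Atf3 counted 2564 and 464 in the controls and 755 and 1439 in csPIMT-/-. Both were high in the 2-month control and next in the 6-month csPIMT-/- pool, while Fosb was highest in the 6-month control at 756 and 95.2 to 249 elsewhere. Of 7 genes that follow body temperature, 1 was called lower and 1 higher, against 17.5% and 11.0% of all genes. The latter was Cirbp, a cold-inducible RNA-binding protein, which counted 1645 and 1687 in the controls and 2772 and 4823 in csPIMT-/- (limma adjusted p = 0.0362). The Cirbp call was lost in most fits that left out 1 library, with differences of 0.73 to 1.53. The former was Hsp90aa1, chosen after its values were seen, with ratios of 0.535 and 0.551 (limma adjusted p = 0.0358), a call lost in each fit that left out 1 library (adjusted p 0.0652 to 0.358). Hspa8, an abundant chaperone, had ratios of 1.05 and 1.88.

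**Figure D4:**
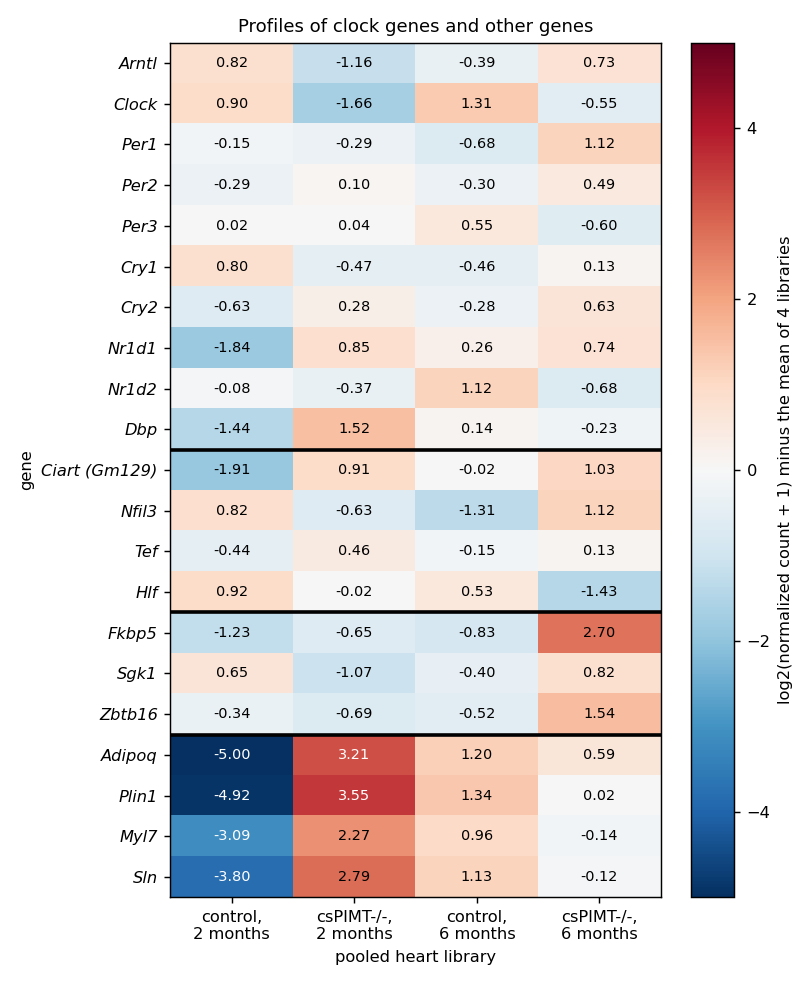
Profiles over the 4 pooled libraries as log2(normalized count + 1) minus the mean of the gene, with the value in each cell. Rows are the 10 clock genes, then chosen genes: other clock genes, the glucocorticoid-induced Fkbp5, Sgk1 and Zbtb16, and markers of fat (Adipoq, Plin1) and atrium (Myl7, Sln). The fat and atrial markers shown are among those with the library order of Dbp. Cidea, Fabp4, Nppa and Nr2f2, which did not have it, are not shown. Arntl runs from 0.82 to -1.16 between the 2-month control and the 2-month csPIMT-/- pool, and Dbp runs from -1.44 to 1.52.

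To see which genes shared these profiles, the mean-centred log2 values over the 4 libraries were compared among 12049 genes with a mean of at least 100 normalized counts. The genes nearest to Dbp by Euclidean distance were Ehhadh (0.280), Aox3 (0.432), Slc7a4 (0.432), Stard10 (0.450) and Thrsp (0.495). Ehhadh, an enzyme of peroxisomal β-oxidation, counted 474 and 1079 in the controls and 3085 and 925 in csPIMT-/-. Among the genes nearest to Arntl were Wt1 (0.194), Sgk1 (0.211), Adamts14 (0.222) and Stc1 (0.250). Sgk1, a kinase gene induced by glucocorticoids, counted 6794 and 3295 in the controls and 2064 and 7652 in csPIMT-/-. Among the other clock genes ranked, Cry1 was at 100, Nfil3 at 313 and Npas2 at 2024 in nearness to Arntl. Tef was at 8660, Per3 at 8850, Bhlhe41, a repressor of the clock, at 11151, Nr1d1 at 11803 and Ciart at 11829. In nearness to Dbp, Bhlhe41 ranked 77, Nr1d1 202, Ciart 592 and Tef 736. Per3 ranked 5294, Npas2 7810, Cry1 9938 and Nfil3 11349. Distances rest on 4 libraries of 1 pool each.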

How the data were processed

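RNA was pooled from 5 hearts per group, enriched on oligo-dT, made into directional Illumina TruSeq libraries and sequenced as single-end reads. Per the study's methods, the authors removed adapters and ribosomal RNA reads, aligned to mm10 with STAR and counted genes with htseq-count (HTSeq 0.6.1p1 in the submitters' processing notes) and a UCSC annotation. The strand setting of the counting and the time of collection are not given in the sources used here, so reads of overlapping antisense genes may not be separated. The deposited values are a signal per gene, counts divided by a library size factor. They were whole multiples of 1 read (100% of values within 1e-06), and reads were recovered from them, 29823073 to 40705783 per library. edgeR on these reads called 2521 genes lower and 1637 higher.

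Ratios used the deposited scale, a minimum of 10 reads in either library, 0.5 reads added for log2 ratios, and exact Clopper-Pearson 95% intervals that cover counting error only. With 1 pool per group, ratios at 1 age have no test. Genotype was tested over both ages with limma 3.58.1 (R 4.3.3) with a mean trend on log2(normalized count + 1), which understates the change of low genes, for genes with at least 10 normalized counts in at least 2 libraries and age as a covariate. Benjamini-Hochberg adjustment covered all 14847 genes and the threshold was 0.05. edgeR 4.0.16 and DESeq2 1.42.0 on recovered reads, TMM, other pseudocounts, other filters, a GC trend (lowess, span 0.3, GENCODE M21 longest transcript) and each library left out were alternatives. Symbols were matched to GENCODE and RefSeq, in which Ciart is listed as Gm129 in the files and Cipc as 2310044G17Rik.

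The members and lists were chosen with earlier results of these data known. All members were described. From each list up to 5 genes past 2-fold the same way at both ages were named, by the smaller log2 ratio, or else the 2 most abundant, and for Dbp and Arntl the 5 genes of nearest profile. Genes of these lists named outside this rule are marked as chosen after their values were seen, apart from the clock genes ranked by profile. A few genes that these rules would name are not reported here. No values of single mice were analysed here.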

Additional observations from a re-analysis of the deposited data

Results flagged for a closer look

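For 4 clock genes the 2 ages gave ratios on opposite sides of 1, beyond counting error. The log2 ratio of csPIMT-/- over control at 6 months minus that at 2 months was 3.10 for Arntl, 1.95 for Per1, 1.85 for Cry1 and -3.32 for Dbp. With 1 pooled library per genotype and age, the difference between the ages was not tested, and age, pool and collection time cannot be told apart.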

How the results depend on the processing

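No paired analysis was possible because each group has 1 library and the labels carry no replicate numbers. Changing the control and subtracting the GC trend moved the most member ratios beyond their counting interval, 18 of 20 each, against 9 with scaling to total reads and 0 with TMM. With the control of the other age, 1 member in place of 2 was above 2-fold at 2 months (Dbp), 1 in place of 3 was below 0.5 at 6 months (Clock), and 4 in place of 2 were above 2-fold at 6 months (Per1, Cry2, Nr1d1, Dbp). Arntl at 6 months then had a log2 ratio of -0.088. Requiring the whole counting interval past 2-fold left 1 above at 6 months (Per1). Of 100 alternative member ratios, 37 stayed within the counting interval, and 14 changed sign, in Per1, Per2, Per3 and Nr1d2 at 2 months and Arntl, Cry1, Nr1d1 and Dbp at 6 months. In the test over both ages, 0 members were called lower and 0 higher without a mean trend or with the GC trend subtracted, and DESeq2 called 2 lower (Clock, Nr1d2) and 3 higher (Cry2, Nr1d1, Dbp). Leaving out 1 library gave 0 to 2 lower and 0 to 2 higher, in fits of genotype alone that leave a group with 1 library, assumed to vary like the others. Over all genes, the test called 2595 lower and 1637 higher, no mean trend called 0 and 0 (5965 at an unadjusted p under 0.05), the GC trend 0 and 0 (3829), and leaving out 1 library 366 to 1882 lower and 274 to 1082 higher. Leaving out 1 library reversed the difference of Arntl (range -1.374 to 0.514, with 0.172 without the 2-month control) and Cry1 (-0.965 to 0.286). Also reversed were, with the GC trend subtracted, Nr1d2 at 0.194, Hsp90aa1 at 0.082 and Tipin at 0.006. Adjusted p-values of Clock ranged from 4.60e-09 to 0.166 and those of Cry2 from 0.0119 to 0.357 over the alternatives. The cause was not tested.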
